A study of Canis lupus familiaris with 62 samples.

Results

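ENSCAFG00000031174 and ENSCAFG00000004443 are 2 of the 30951 dog genes counted in 62 meningiomas. They were chosen because their RNA was much higher in tumours from dogs that had surgery than in tumours from untreated dogs. Among the 689 genes called higher in surgical tumours whose mean log2 CPM reached 1 and whose group medians were at least 0.5 apart, they had the largest and the next largest change. CPM is the count of a gene scaled to a fixed library total, and log2 CPM was computed with a prior count of 2. ENSCAFG00000031174 changed by a log2 fold change of 4.08 (SE 0.597) and ENSCAFG00000004443 by 4.03 (SE 0.512), and the next gene outside the pair by 3.37 (SE 0.398). A gene with a larger change, 4.71 (SE 0.730), stood outside because its group medians hardly differed. These values chose the genes, so they are a description, and no test of them is used.

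Meningiomas arise from the membranes that cover the brain and are common brain tumours of older dogs. Corticosteroids and anti-epileptic drugs relieve swelling and seizures, surgery removes tumour tissue, and radiotherapy damages the DNA of the cells that remain. The RNA came from formalin-fixed, paraffin-embedded tissue, a form of storage in which RNA is broken into short fragments. Per the labels' protocols, specimens were biopsies taken at surgery or tissue taken soon after death and were archived between 2011 and 2022. The labels do not say which library came from which source, nor whether a treatment preceded the sampling. Surgery and the source of the tissue therefore cannot be told apart in any surgical value below.

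Each library came from 1 dog with a spontaneous tumour. The treatment label gave 27 untreated dogs, 7 given a steroid (6 of them labelled with an anti-epileptic drug too, 1 with a steroid alone), 3 given an anti-epileptic alone, 3 with radiotherapy alone (RT), 13 with surgery alone (Sx) and 9 with surgery and radiotherapy (SxRT). The Sx and SxRT dogs together are called surgical below, 22 in all. Sample titles open with a letter, N or S, followed by a number of 11 to 22, and the labels explain neither. All 21 S-named dogs were surgical and 1 surgical dog, Sx replicate 1, had an N name, so the letter and surgery can hardly be told apart. Replicates are numbered in accession order, and p-values set a difference or relation against the variation between these dogs.

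The files pair the identifiers with no gene names, and the name table at hand, of another assembly, matched 0 of them. The function of either gene, and markers of meningioma or of other cell types, were therefore not analysed here. On CanFam3.1, ENSCAFG00000031174 lies on the plus strand of chromosome 13 at chr13:62526571-62528527. Its 3 exonic blocks cover 1280 bases of a span of 1957. ENSCAFG00000004443 lies on the minus strand of chromosome 1 at chr1:110087036-110092818. Its exons merge into 4 blocks that cover 2667 bases of a span of 5783, and 1 block holds 2112 of them. Neither overlaps another gene of the annotation, so the lack of strand in the counting mixes neither with a gene on the opposite strand.

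Library totals ran from 1967061 to 12063982 counts with a median of 4190135. Both reads of a pair were counted, so a count of 2 mostly stands for 1 fragment. All 50 counts of ENSCAFG00000031174 above 0 were even, as were 46 of 62 for ENSCAFG00000004443. Over the 62 libraries the median count was 10 for ENSCAFG00000031174 and 189 for ENSCAFG00000004443. ENSCAFG00000031174 had no count in 12 libraries. If every count were independent, this would allow a level of up to 0.514 to 1.10 CPM (3 counts per library). As a count of 2 mostly stands for 1 fragment, the level allowed is higher than that limit. This limit covers counting error only.

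ENSCAFG00000031174 was undetected in 9 of 27 untreated tumours and was counted in every surgical one. The highest untreated tumour, replicate 9 with 64 counts, lay above the surgical median and was the only untreated one that did. In the 27 untreated tumours its log2 CPM ran from -1.16, the value of a count of 0, through a median of 0.59 to 4.22. Their mean was 0.62 ± 1.56 (SD). In the 13 Sx tumours it ran from 1.23 through 3.69 to 6.09, with a mean of 3.59 ± 1.65 (SD). In the 9 SxRT tumours it ran from 1.27 through 4.76 to 8.39, with a mean of 4.44 ± 2.19 (SD). All 22 of these were above the untreated median and 10 were above the highest untreated tumour, while 15 untreated tumours lay below the lowest surgical one. As many surgical tumours above the highest untreated value were found for 0.68% of the 18370 genes tested, among them the genes chosen on this difference. Bulk RNA does not tell more cells of a type from more RNA per cell.

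ENSCAFG00000004443 was detected in every tumour and reached its highest levels in surgical tumours. Its untreated log2 CPM ran from 2.92 through 4.55 to 8.17, with a mean of 5.05 ± 1.39 (SD, n = 27). In Sx tumours it ran from 3.69 through 8.62 to 11.39, with a mean of 8.61 ± 2.39 (SD, n = 13). In SxRT tumours it ran from 5.14 through 9.05 to 11.37, with a mean of 8.80 ± 2.11 (SD, n = 9). The surgical range was wide and overlapped the untreated one: 21 of the 22 were above the untreated median and 14 above the highest untreated tumour. As many were found for 0.109% of genes. The highest raw count was 16321, in SxRT replicate 8, and the lowest surgical count was 68, in Sx replicate 1.

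Per kilobase of exon, ENSCAFG00000004443 was the more abundant of the 2 genes. The median CPM per kilobase was 0.828 for ENSCAFG00000031174 and 8.60 for ENSCAFG00000004443 in untreated tumours. In surgical tumours the medians were 10.9 and 197. ENSCAFG00000004443 had the higher value in 26 of 27 untreated and 21 of 22 surgical tumours, and the exception in the surgical group was an SxRT tumour.

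**Figure D1:**
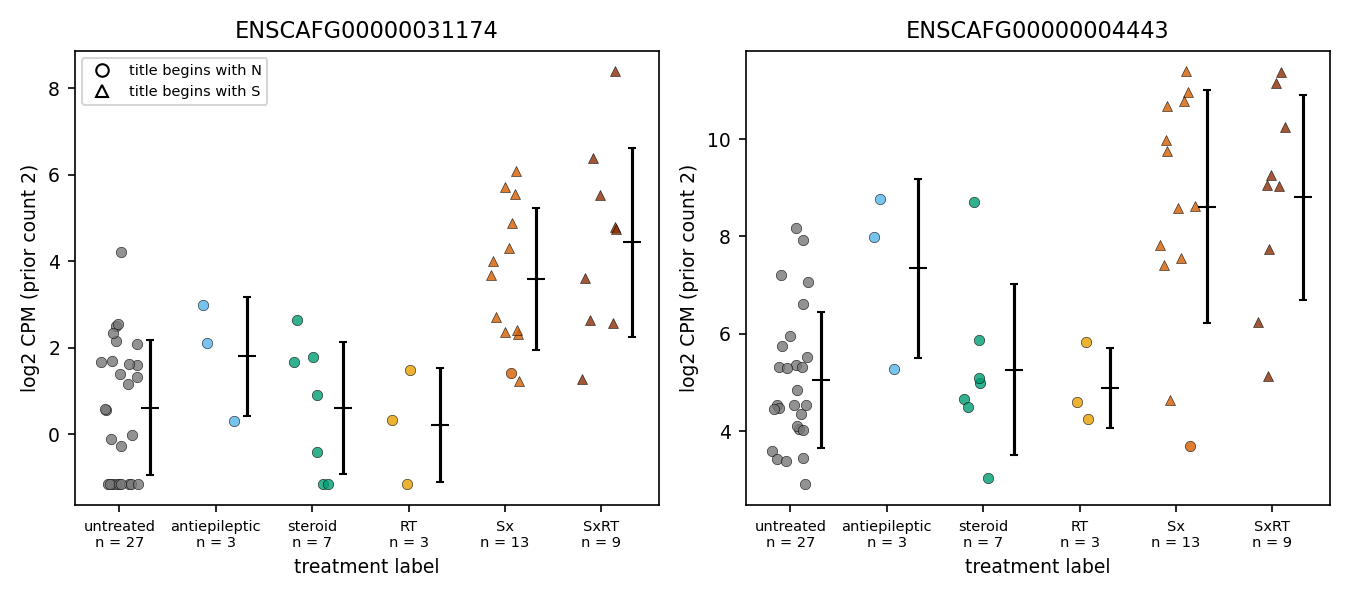
Log2 CPM of each gene (y axis) in 62 tumours by treatment label (x axis). Points are dogs, circles N-named and triangles S-named, and bars are the mean and SD. Surgical tumours reach 8.39 and 11.39, while untreated tumours stop at 4.22 and 8.17. One N-named Sx tumour lies among the low ones for both genes.

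The fit over all genes called 3078 of 18370 genes, 16.8%, different between surgical and untreated tumours (edgeR quasi-likelihood, Benjamini-Hochberg adjusted p under 0.05), of which 1171 (6.37%) were higher and 1907 (10.4%) lower. That balance depends on the tool: limma voom called 1604 higher and 1386 lower, and DESeq2 1186 and 2329. The values of the pair were taken again in other sets of libraries, as a description. Without the N-named surgical tumour the log2 fold changes were 4.13 and 4.08. The share of even counts, a library measure of how often both reads of a pair counted for the same gene, differed between the groups. It was 86.5% ± 3.46 in surgical and 91.2% ± 2.71 in untreated libraries (SD, n = 22 and 27). With this share as a covariate the log2 fold changes were 4.56 and 4.04, and the genes called fell from 3078 to 734. Surgical libraries also had more counts, 5356585 ± 2070796 against 3951210 ± 1216060, and a lower mitochondrial share, 10.0% ± 4.01 against 14.4% ± 7.91 (SD, n = 22 and 27). The part of depth and mitochondrial share in the difference was not tested.

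The surgical tumours that were high for one gene were mostly high for the other. All 10 surgical tumours above the highest untreated level of ENSCAFG00000031174 were also above that of ENSCAFG00000004443, 4 more were so for ENSCAFG00000004443 alone, and 8 were so for neither. For ENSCAFG00000004443, 14 of all 22 surgical tumours passed its level. Both genes were chosen as high in surgical tumours, so part of this overlap was set by the choice. In the 13 steroid, anti-epileptic and RT tumours none was above the highest untreated level of ENSCAFG00000031174, and 2 were above that of ENSCAFG00000004443.

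Whether the 2 genes varied together was asked within surgical and within untreated tumours, since the choice of genes sets their relation across these groups. Over the 22 surgical tumours Pearson's r was 0.631 (permutation p = 0.00164, adjusted over 2 sets of libraries 0.00328) and Spearman's rho was 0.684 (permutation p = 0.00069, adjusted 0.00138). Without the 2 tumours farthest from the median of ENSCAFG00000031174, r was 0.718. Over the 27 untreated tumours r was 0.289 (permutation p = 0.143, adjusted 0.143) and rho 0.371 (permutation p = 0.0576, adjusted 0.0576), with an r of 0.363 without the 2 farthest. The difference between these correlations was not tested. In Sx tumours alone r was 0.723 (permutation p = 0.00488, n = 13). In SxRT tumours alone r was 0.560 (exact permutation p = 0.117, n = 9), and 0.931 without the 2 farthest.

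Among surgical tumours numbered 11 to 16, r was 0.568 and rho 0.367 (exact permutation p = 0.112 and 0.336, n = 9). Among those numbered 17 to 22, r was 0.601 and rho 0.643 (permutation p = 0.0299 and 0.0209, adjusted 0.0597 and 0.0418, n = 13). The relation thus had the same sign in both classes of title number, and r missed the threshold of 0.05 in each after adjustment.

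**Figure D2:**
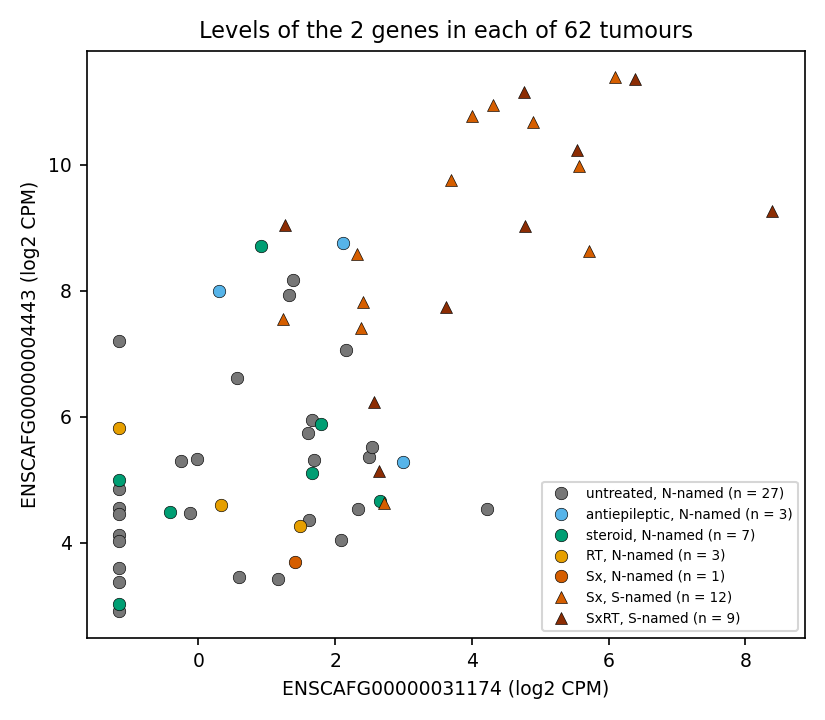
Log2 CPM of ENSCAFG00000004443 (y axis) against ENSCAFG00000031174 (x axis), 1 point per tumour, coloured by treatment label, with triangles for S-named dogs. The 10 tumours high for both genes are surgical, and a column of points at -1.16 marks the 12 tumours with no count of ENSCAFG00000031174.

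SxRT and Sx tumours were compared because the choice of genes averaged them. ENSCAFG00000031174 differed by a log2 fold change of 1.49 (SE 0.815, 95% interval -0.11 to 3.08, edgeR adjusted p = 1), and 5 of 9 SxRT tumours lay above the Sx median. SxRT replicate 5, with 2266 counts, carried most of that value: without it the change was 0.14. ENSCAFG00000004443 differed by 0.07 (SE 0.703, 95% interval -1.30 to 1.45, edgeR adjusted p = 1), and 6 of 9 lay above the Sx median. In this comparison 2 of 18370 genes were called, 0.0109%. The intervals still hold differences of several fold, so these data do not show that SxRT and Sx tumours had the same level of either gene.

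Levels under the other labels are set against the same untreated tumours that the choice of genes used. The 3 anti-epileptic tumours had log2 CPM values of 2.11, 3.00 and 0.30 for ENSCAFG00000031174, all within the untreated range. For ENSCAFG00000004443 they had 8.77, 5.28 and 7.999, a mean of 7.35 ± 1.83 (SD), and the first lay above every untreated tumour. The log2 fold changes against untreated tumours were 1.10 (SE 1.13, edgeR adjusted p = 0.999) and 2.14 (SE 0.860, 95% interval 0.46 to 3.83, edgeR adjusted p = 0.973). Thus ENSCAFG00000004443 was above the untreated median in 3 of 3 anti-epileptic tumours without passing the test over all genes, in which 1 gene (0.00544%) did. Without anti-epileptic replicate 2 the change of ENSCAFG00000031174 was 0.11.

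The 7 steroid tumours overlapped the untreated ones for both genes. ENSCAFG00000031174 ran from -1.16 through 0.91 to 2.65 and had no count in 2 of them. ENSCAFG00000004443 ran from 3.04 through 5.00 to 8.71, and only steroid replicate 3 lay above the untreated range. The log2 fold changes were -0.08 (SE 0.899, 95% interval -1.84 to 1.69, edgeR adjusted p = 0.987) and 0.65 (SE 0.697, 95% interval -0.72 to 2.01, edgeR adjusted p = 0.780), with 47 genes (0.256%) called. The second value turned to -0.79 without steroid replicate 3, and the first lay so near 0 that its sign changed with the setting.

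The 3 RT tumours had values of 1.48, -1.16 and 0.33 for ENSCAFG00000031174 and of 4.26, 5.83 and 4.60 for ENSCAFG00000004443, all within the untreated range. Their log2 fold changes were -0.66 (SE 1.39, 95% interval -3.38 to 2.07, edgeR adjusted p = 0.968) and -0.42 (SE 1.07, 95% interval -2.52 to 1.68, edgeR adjusted p = 0.975), with 80 genes (0.435%) called. For ENSCAFG00000031174 the value was -1.84 without RT replicate 1, -0.13 without RT replicate 2 and -0.40 without untreated replicate 9. For ENSCAFG00000004443 it was -1.03 without RT replicate 2, -0.12 without RT replicate 1, -0.23 without RT replicate 3, and -0.26 and -0.15 without untreated replicates 1 and 20. By group mean the order for ENSCAFG00000031174 was RT, steroid, untreated, anti-epileptic, Sx and SxRT, and for ENSCAFG00000004443 it was RT, untreated, steroid, anti-epileptic, Sx and SxRT. Neighbours in these orders differed by less than the larger of their 2 SDs, except anti-epileptic and Sx tumours for ENSCAFG00000031174 and steroid and anti-epileptic tumours for ENSCAFG00000004443.

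The letter and number of the sample title were examined next. Sx replicate 1, the N-named surgical tumour, had 12 counts of ENSCAFG00000031174 (log2 CPM 1.41), the third lowest of the surgical tumours. It had the lowest surgical level of ENSCAFG00000004443 (3.69), below the untreated median of 4.55. It also had a score of 36.8 on the first principal component of all genes, where the surgical median was -51.3 and the untreated median 3.50. The 21 S-named tumours averaged 4.06 ± 1.84 (SD) for ENSCAFG00000031174 and 8.93 ± 1.98 (SD) for ENSCAFG00000004443. With 1 such dog, whether the letter or the treatment label goes with the level cannot be told apart.

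Among surgical tumours both genes had higher mean levels at the later title numbers. ENSCAFG00000031174 averaged 3.27 ± 1.56 (SD, n = 9) at numbers 11 to 16 and 4.40 ± 2.01 (SD, n = 13) at 17 to 22. ENSCAFG00000004443 averaged 7.68 ± 2.11 and 9.38 ± 2.11 (SD, same dogs), and 12 of the 13 later tumours lay above the median of the earlier ones. The slopes per unit of title number, fitted over the 22 surgical tumours, were 0.19 (SE 0.140, edgeR adjusted p = 0.778) and 0.20 (SE 0.109, edgeR adjusted p = 0.684) on the log2 scale. Neither passed the test. No gene did in this fit: edgeR called 0 of 18324 with 1440 at an unadjusted p under 0.05, and limma voom called 0 with 1905.

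In untreated tumours ENSCAFG00000031174 had a lower mean at the later numbers. It averaged 1.02 ± 1.58 (SD, n = 18) at 11 to 16, with no count in 4, and -0.20 ± 1.23 (SD, n = 9) at 17 to 22, with no count in 5. The slope was -0.54 (SE 0.241, 95% interval -1.01 to -0.07, edgeR adjusted p = 0.829), and 1 of the 9 later tumours lay above the median of the earlier ones. ENSCAFG00000004443 averaged 5.16 ± 1.30 and 4.82 ± 1.62 (SD, same dogs), with a slope of -0.11 (SE 0.140, edgeR adjusted p = 0.965). Here edgeR called 0 of 18366 genes with 1065 at an unadjusted p under 0.05, and limma voom 0 with 1145.

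The gap between surgical and untreated tumours was then fitted in each class of title number, with all treatment labels and Sx and SxRT averaged equally. The difference between the gaps was tested in a separate fit, which pooled Sx and SxRT and left out steroid, anti-epileptic and RT tumours. Within numbers 11 to 16, 9 surgical against 18 untreated tumours, the log2 fold changes were 2.23 (SE 0.782) for ENSCAFG00000031174 and 2.08 (SE 0.585) for ENSCAFG00000004443. Within numbers 17 to 22, 13 against 9, they were 6.09 (SE 0.941) and 4.45 (SE 0.942). The value of 6.09 sets surgical tumours, 1 of them with 2266 counts, against untreated tumours near the floor. Of those 9 untreated tumours, 5 had no count of ENSCAFG00000031174, and the median count was 0. The mean log2 CPM values of the 2 sets were 4.40 and -0.20. In the separate fit the difference between the gaps was 3.15 (SE 1.27, 95% interval 0.66 to 5.63, edgeR adjusted p = 0.773) and 1.16 (SE 1.04, 95% interval -0.89 to 3.21, edgeR adjusted p = 0.997), and passed the test for neither gene. As the models differ, these values are not the differences of the gaps printed above. For ENSCAFG00000004443 limma voom gave 2.37 (SE 1.08, adjusted p = 0.745). In that test edgeR called 0 of 18369 genes with 1042 at an unadjusted p under 0.05, and limma voom 0 with 1202. Over all genes the smaller sets called 0 (numbers 11 to 16, with 2372 at an unadjusted p under 0.05) and 36 (17 to 22) genes. The surgical tumours were the higher group for both genes in both classes of number. The pair was chosen on this contrast over the same libraries, so that direction is a description.

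**Figure D3:**
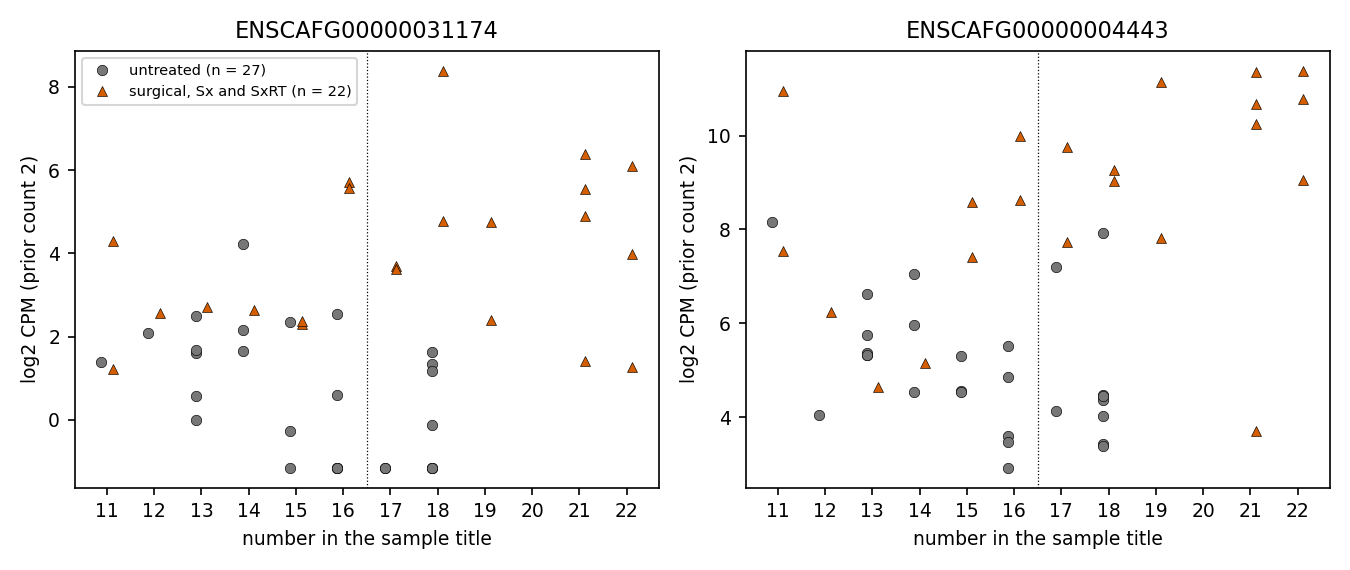
Log2 CPM of each gene (y axis) against the number in the sample title (x axis) for 27 untreated (circles) and 22 surgical (triangles) tumours. The dotted line parts numbers 11 to 16 from 17 to 22, and the groups are 2.23 and 2.08 apart in the fit left of it and 6.09 and 4.45 right of it. Right of it, 5 of 9 untreated tumours had no count of ENSCAFG00000031174.

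Sex and neuter status, which the choice of genes did not use, gave no difference that passed the test for either gene. Between 31 females and 31 males the log2 fold changes were 0.23 (SE 0.566, edgeR adjusted p = 0.969) and 0.35 (SE 0.477, edgeR adjusted p = 0.927), with 9 genes (0.049%) called. Between 7 intact and 55 neutered dogs they were 1.05 (SE 0.819, edgeR adjusted p = 0.807) and 0.90 (SE 0.659, edgeR adjusted p = 0.791), with 8 genes (0.0435%) called, and 5 of 7 intact dogs lay above the neutered median for each gene. Of the 7, 4 were surgical, and all 4 were among those 5, so this count partly restates the difference that chose the genes. The gap between surgical and untreated tumours differed between females and males by 0.68 (SE 1.18, edgeR adjusted p = 1) and 0.05 (SE 0.936, edgeR adjusted p = 1). In that last test edgeR called 0 of 18369 genes with 894 at an unadjusted p under 0.05, and limma voom 0 with 816.

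Survival was labelled without a unit. Of the 22 surgical dogs, 8 had a recorded end and 14 were lost to follow-up and treated as censored. The 8 dogs with a recorded end had a mean log2 CPM of 7.36 ± 2.48 (SD) for ENSCAFG00000004443, with a range from 3.69 to 11.39, and the 14 others 9.45 ± 1.74 (SD), with a range from 5.14 to 11.37. For ENSCAFG00000031174 the means were 3.51 ± 1.76 and 4.19 ± 1.98 (SD, same dogs). The hazard ratio per log2 unit was 0.795 for ENSCAFG00000031174 (95% interval 0.537 to 1.18, permutation p = 0.258, Cox score test adjusted p = 0.836). It was 0.781 for ENSCAFG00000004443 (95% interval 0.581 to 1.05, permutation p = 0.0990, Cox score test adjusted p = 0.740). Both ratios lay below 1, and neither passed the test, in which 22 of 18370 genes (0.12%) did. With radiotherapy as a stratum the ratios were 0.914 and 0.856. With every dog counted as a recorded end they were 0.834 and 0.931 (permutation p = 0.143 and 0.477). With only 8 recorded ends the intervals are wide. One of these ends, Sx replicate 1, had the lowest survival label of the surgical dogs, 5, and their lowest level of ENSCAFG00000004443 (3.69). The ratios were not taken again without it.

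Among untreated dogs the survival label was 0 in 16 and above 0 in 11. ENSCAFG00000004443 averaged 5.38 ± 1.54 (SD) in the former and 4.56 ± 1.03 (SD) in the latter, a log2 fold change of -1.11 (SE 0.569, 95% interval -2.23 to 0.002, edgeR adjusted p = 0.783). ENSCAFG00000031174 averaged 0.87 ± 1.67 and 0.25 ± 1.37 (SD, same dogs), a change of -0.52 (SE 0.965, edgeR adjusted p = 0.957). The 2 sets overlapped for both genes. In this test edgeR called 0 of 18366 genes with 1191 at an unadjusted p under 0.05, and limma voom 0 with 1419.

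Library measures were set beside both genes in 16 relations (total counts, mitochondrial share, even share and the first principal component, in surgical and in untreated libraries). Only ENSCAFG00000004443 and the first component in surgical libraries passed by Pearson's r, at -0.639 (permutation p = 0.00154, adjusted 0.0246). Its rho was -0.522 (permutation p = 0.0137, adjusted 0.210), and r was -0.271 without the 2 farthest libraries, so the relation rests on those. The relation of ENSCAFG00000004443 to total counts in surgical libraries had an r of 0.425 (permutation p = 0.0471, adjusted 0.262) and a rho of 0.473 (permutation p = 0.0275, adjusted 0.210). Without the 2 farthest, r was 0.430. Other relations were larger without the 2 farthest libraries. In surgical libraries r of ENSCAFG00000031174 with total counts went from 0.341 to 0.680. With the even share r went from -0.141 to -0.568 for ENSCAFG00000031174 and from -0.319 to -0.583 for ENSCAFG00000004443. The part of depth and even share in the levels was not tested.

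The genes most like each of the pair were sought among the 13793 genes whose mean log2 CPM reached 1, by Pearson's r of log2 CPM over the 22 surgical tumours. The same r over the 27 untreated tumours, which the search did not use, was then read for the 8 genes found. For ENSCAFG00000031174 the highest values belonged to ENSCAFG00000003880 on chromosome 1 (r = 0.749, rho = 0.744) and ENSCAFG00000000615 on chromosome 12 (r = 0.736, rho = 0.661). Their r in untreated tumours was 0.279 and 0.175 (permutation p = 0.159 and 0.379, adjusted over 8 genes 0.317 and 0.505). The lowest were ENSCAFG00000009067 on chromosome 17 (r = -0.700) and ENSCAFG00000000549 on chromosome 1 (r = -0.665), at -0.005 and 0.299 in untreated tumours (permutation p = 0.981 and 0.131, adjusted 0.981 and 0.317). When every gene was fitted on the level of ENSCAFG00000031174 in surgical tumours, with Sx or SxRT, sex and neuter status as covariates, edgeR called 1 of 18323 genes (0.00546%), with 1075 at an unadjusted p under 0.05.

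For ENSCAFG00000004443 the highest r was larger. ENSCAFG00000043834 on chromosome 20 followed it over the 22 surgical tumours with r = 0.955 and rho = 0.948, and r was 0.930 without the 2 tumours farthest from the median. Its level in surgical tumours ran from 1.41 through a median of 4.86 to 6.68, and it rose by 0.65 on the log2 scale per log2 unit of ENSCAFG00000004443 (SE 0.051, edgeR adjusted p = 2.73e-07). In the 27 untreated tumours, where its median was 2.66, r was -0.017 (permutation p = 0.935, adjusted over 8 genes 0.981) and rho 0.181. The difference between the surgical and the untreated correlation was not tested.

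ENSCAFG00000045952 on chromosome 11 came next in surgical tumours (r = 0.890, rho = 0.910), with a slope of 0.93 (SE 0.0996, edgeR adjusted p = 4.06e-05). In untreated tumours its r was 0.372 and its rho 0.376 (permutation p = 0.0558 and 0.0525, adjusted p of r 0.317). The lowest values belonged to ENSCAFG00000002538 on chromosome 10 (r = -0.820, rho = -0.758) and ENSCAFG00000013101 on chromosome X (r = -0.807, rho = -0.713). Their slopes were -0.18 (SE 0.0401, edgeR adjusted p = 0.0216) and -0.68 (SE 0.132, edgeR adjusted p = 0.0109). Without Sx replicate 1 neither passed, with slopes of -0.18 and -0.56 (edgeR adjusted p = 0.221 and 0.332), while ENSCAFG00000043834 and ENSCAFG00000045952 still did (edgeR adjusted p = 5.03e-06 and 7.99e-05). Without the 2 farthest tumours the r of both falling genes was -0.722. In untreated tumours both had a positive r, 0.229 and 0.302 (permutation p = 0.250 and 0.125, adjusted 0.399 and 0.317).

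Over all 62 tumours, where the gap between surgical and untreated tumours enters the correlation, the gene most like ENSCAFG00000031174 was ENSCAFG00000004443 (r = 0.708). With each treatment group centred on its mean, r was 0.427. ENSCAFG00000004443 ranked only 16 of 13793 within surgical and 609 within untreated tumours. In turn, ENSCAFG00000031174 ranked 77 and 722 by r with ENSCAFG00000004443. Fitted on the level of ENSCAFG00000031174 in surgical tumours, ENSCAFG00000004443 had a slope of 0.68 (95% interval 0.27 to 1.09) and did not pass (edgeR adjusted p = 0.627). The reverse slope was 0.63 (95% interval 0.27 to 0.99). After ENSCAFG00000004443, the gene most like ENSCAFG00000031174 over all 62 tumours was ENSCAFG00000001254 on chromosome 11 (r = 0.665, 0.559 in surgical and 0.342 in untreated tumours).

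ENSCAFG00000001254 was also the gene most like ENSCAFG00000004443 over all 62 tumours (r = 0.877). Here the likeness was present within groups: r was 0.839 in surgical tumours (rank 6), 0.779 in untreated tumours (rank 1) and 0.782 with group means removed. Its median log2 CPM was 8.94 in surgical and 5.60 in untreated tumours. ENSCAFG00000007338 on chromosome 27 came next (r = 0.833), with 0.825 in surgical tumours (rank 8), 0.512 in untreated tumours (rank 19) and 0.738 with group means removed. Its medians were 8.04 and 4.93. The untreated tumours were part of the search over all 62, so these values are a description with no test.

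The lists of genes at an r of at least 0.7 over surgical tumours held 2 of 13793 genes for ENSCAFG00000031174 and 33 of 13793 for ENSCAFG00000004443. In both lists was 1 gene, 50% of the first and 3.03% of the second. With 2 genes in the first list, no sharing can be read from this. The lists that edgeR called as rising with each level held 1 and 41 genes and shared 0. Of the 33, 20 (60.6%) had a positive r in untreated tumours, where 42.3% of all 13793 genes did. Of the 19 genes at or below -0.7 with ENSCAFG00000004443, 2 had a negative r in untreated tumours, where all but 42.3% of the 13793 genes did. The 19 were found with Sx replicate 1 included, and this count was not taken again without it. Of the 33, 3 lie on chromosome 1 with ENSCAFG00000004443. The share of all 13793 genes on that chromosome was not counted, so no clustering can be read from this. Fitted on the level of ENSCAFG00000004443 in surgical tumours, 215 of 18323 genes (1.17%) were called by edgeR, 41 (0.224%) rising and 174 (0.95%) falling with it. The falling genes rest largely on 1 tumour: without Sx replicate 1, 17 genes were called, 16 rising and 1 falling. By limma voom 34 were called, 18 rising and 16 falling.

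**Figure D4:**
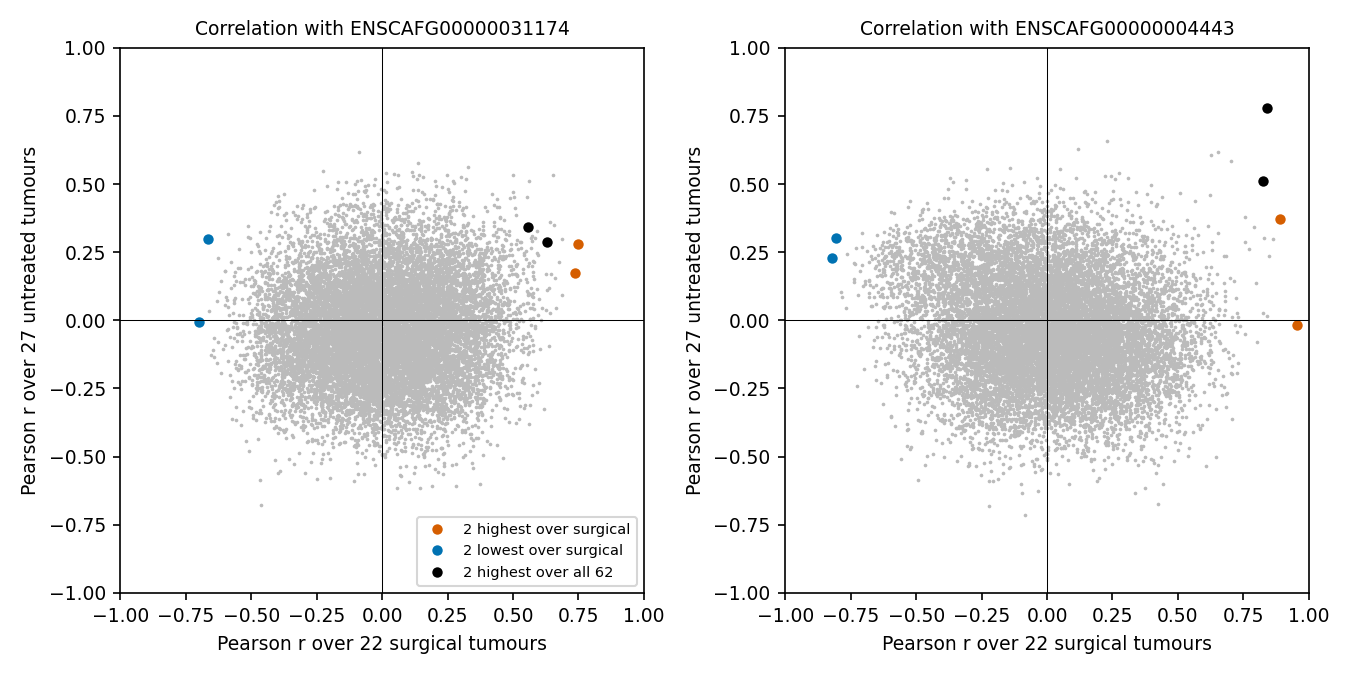
Pearson's r of log2 CPM with each gene over 27 untreated tumours (y axis) against r over 22 surgical tumours (x axis), 1 grey point per gene of 13793 and coloured points for the genes named. For ENSCAFG00000004443 the rightmost gene stands at 0.955 and -0.017, while the 2 genes most like it over all 62 tumours are high on both axes.

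No tested gene that starts within 1 Mb of either of the pair was raised as far in surgical tumours. The pair was chosen for the size of this change, so that outcome was nearly set by the choice. Within 1 Mb of the start of ENSCAFG00000031174, 14 of 24 genes were tested and 2 were called by edgeR, both lower (14.3%, against 16.8% over all genes). Their median log2 fold change between surgical and untreated tumours was -0.69, with a range from -2.26 to -0.10, where the median over all genes was -0.02. ENSCAFG00000042676, the nearest, picked by position, starts 8.02 kb away and changed by -0.62 (SE 0.477, edgeR adjusted p = 0.406). Its level followed that of ENSCAFG00000031174 with r = 0.499 in surgical and 0.471 in untreated tumours, given as a description. Within 1 Mb of ENSCAFG00000004443, 62 of 84 genes were tested, 4 were called higher and 6 lower (16.1%). Their median was 0.01, with a range from -3.48 to 1.23.

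**Figure D5:**
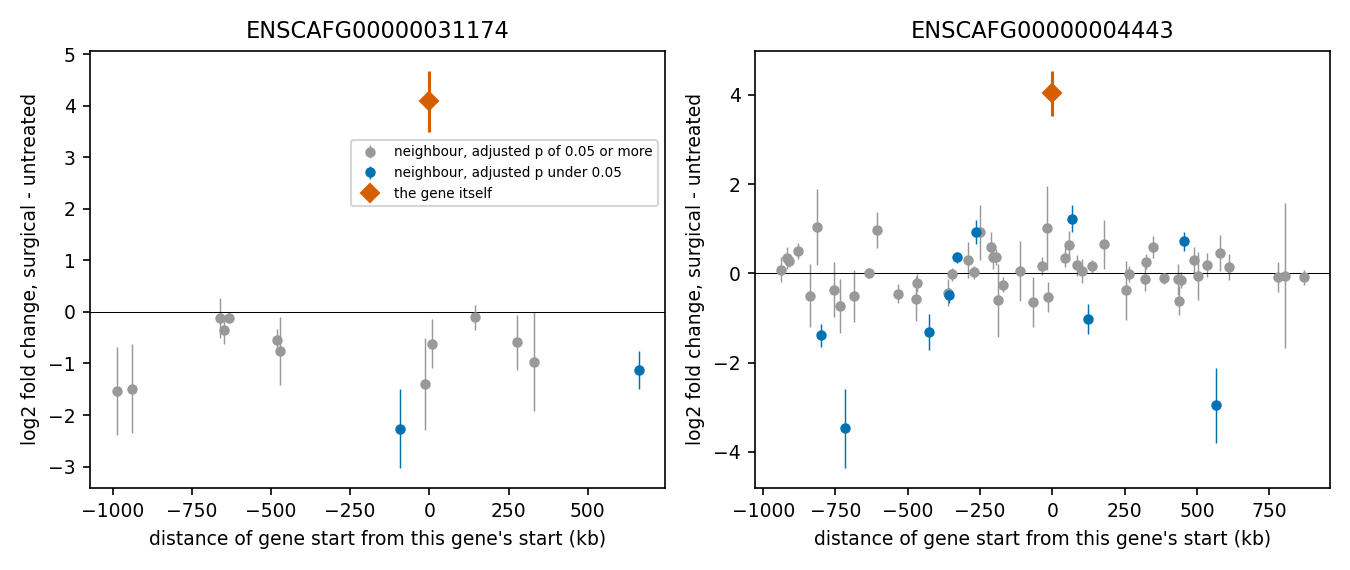
Log2 fold change between surgical and untreated tumours with its SE (y axis) against the distance of each tested neighbour's start (x axis, kb). The diamonds are the 2 genes themselves, chosen for the size of this change, at 4.08 and 4.03. Every neighbour lies at 1.23 or below, and blue points passed the test.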

How the data were processed

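Total RNA of 62 canine meningiomas was sequenced as 150 nt pairs, per the labels' protocols. The authors deposited raw counts per gene, made by featureCounts 2.0.4 from exons annotated in Ensembl release 100 on CanFam3.1, both reads of a pair counted and strand ignored, per the file headers. STAR and DESeq2 were also used, per the submitters' processing notes; no version of either is given in the sources used here.

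Genes were filtered with filterByExpr by treatment label (18370 of 30951 kept), scaled by TMM and tested by quasi-likelihood in edgeR 4.0.16 (R 4.3.3). The model held the 6 treatment labels plus sex and neuter status for all 62 libraries. Benjamini-Hochberg adjustment ran over all genes. Fits on title number, survival label, interactions and the level of a gene used only the libraries they concern. Survival of surgical dogs was tested per gene with the Cox score statistic of log2 CPM (prior count 2), and lifelines 0.30.3 gave hazard ratios. In edgeR the standard error was the absolute log2 fold change divided by the square root of the F statistic. The 95% intervals of fold changes come from their standard errors under a normal distribution. Permutation tests were 2-sided with 100000 resamples in scipy 1.17.1 and numpy 2.4.6, or exact below 10 libraries. The principal component rests on genes whose mean log2 CPM reached 2, and the even share counts of at most 20. limma 3.58.1 and DESeq2 1.42.0 gave alternatives. The fits were tested on simulated data.

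The pair of genes, the tests and the lists were chosen with earlier results of these data known. Other genes were named by rule: for each of the pair, the 2 highest and 2 lowest in r over surgical libraries and the 2 highest over all 62, where the mean log2 CPM reached 1. No sequence was printed, since the identifiers matched no reference table.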

Additional observations from a re-analysis of the deposited data

How the results depend on the processing

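The surgical tumours were the higher group for both genes under every alternative run: the log2 fold change was 2.23 to 6.09 for ENSCAFG00000031174, the larger value at title numbers 17 to 22, and 2.08 to 4.45 for ENSCAFG00000004443. At title numbers 17 to 22, 5 of 9 untreated tumours had no count of ENSCAFG00000031174. Leaving out 1 library gave 3.35 to 4.47 and 3.72 to 4.32. The pair was chosen on this contrast in the same libraries, so its direction was largely set in advance. These ranges are a description. The genes called in this contrast ran from 0 to 4030, against 3078. The differences below changed sign, and none of them passed the test in these settings. For ENSCAFG00000031174, steroid against untreated was 0.28 by limma voom, 0.0208 by DESeq2 and 0.16 with only the groups compared, and -0.80 to 0.17 with 1 library left out. It turned positive without steroid replicates 4, 5 or 6 or untreated replicates 2, 6, 9, 13 or 16. For ENSCAFG00000004443, limma voom gave 0.23 for RT against untreated and -0.31 for females against males. Limma voom gave -0.75 and -1.17 for the interaction of sex and surgery. Leaving out 1 library gave -0.57 to 0.38 for SxRT against Sx, below 0 without Sx replicates 1, 2, 4, 6 or 10 or SxRT replicates 6 or 8, and -0.79 to 0.98 for steroid against untreated. The causes were not tested.

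The correlation of the pair in surgical tumours missed the threshold in fewer libraries: r was 0.568 at title numbers 11 to 16 (permutation adjusted p = 0.143), 0.601 at 17 to 22 (adjusted p = 0.0597) and 0.560 in SxRT tumours (adjusted p = 0.143). These sets were chosen after seeing the data. Genes called on the level of ENSCAFG00000004443 numbered 34 by limma voom and 17 in S-named libraries, against 215. Over the alternatives the genes called ran from 0 to 39 for SxRT against Sx, 2 to 281 for steroid, 0 to 31 for anti-epileptic and 4 to 303 for RT against untreated, against 2, 47, 1 and 80. Without a filter 203 genes were called for sex and 45 for neuter status, against 9 and 8. Without covariates 44 were called for untreated survival, against 0. No paired analysis was possible because each library came from 1 dog and no label links dogs across treatments. Replicate numbers are in accession order and pair no dogs.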
